A study of Mus musculus with 66 samples.

Results

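A minor intronic site was defined as a polyadenylation (pA) site that lies in an intron and was used little, but detectably, in control cells. Members were chosen from the 3'READS count table as intronic sites with at least 10 reads in both siCtrl libraries together and under 5% of the pooled siCtrl reads of their gene, with reads of upstream antisense transcripts left out. This gave 614 sites in 514 genes, out of 59578 pA sites in 15856 genes, of which 16766 were intronic. The siCtrl reads therefore chose the sites, and the siCtrl levels below are a description. C2C12 cells, an established line of mouse myoblasts (muscle precursor cells), were transfected for 48 h with 50 nM siRNA. The 7 3'READS libraries were 2 of a control siRNA (siCtrl), 2 of siPaf1, 2 of siCdc73 and 1 of siSki8. By the labels, batch 1 holds a library each of siCtrl, siPaf1 and siCdc73, and batch 2 holds their second libraries and that of siSki8. They do not say that the libraries of a group came from separate cultures, so the p-values measure the spread between these libraries, which may be technical. The knockdown is transient and removes 1 subunit of a complex at a time.

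An mRNA ends where the nascent transcript is cut and a poly(A) tail is added, usually a short distance downstream of a hexamer such as AATAAA. When the cut falls within an intron, before splicing has removed that intron, the transcript lacks the exons downstream of it and encodes a shortened protein or none. Splicing and transcription elongation compete with these early sites, which are usually used at a low level. Paf1, Cdc73 and Ski8 (gene symbol Wdr61) are subunits of the Paf1 complex (Paf1C), which travels with RNA polymerase II and aids elongation, histone modification and 3' end formation.

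The sequences below are those of 12 members that the results turn on, read from mm9 on the strand of the gene, and they show the hexamer that precedes the cut. Each run is 30 bases long and ends at the pA site, except that of Pcbp2, which ends 10 bases upstream of it. Capitals mark the poly(A) signal found by a search of the 40 bases that end at the site, on the strand of the gene, for 11 hexamers, in the order AATAAA, then ATTAAA, then AGTAAA, then TATAAA, then CATAAA, then GATAAA, then AATATA, then AATACA, then AATAGA, then ACTAAA and then AATGAA. The 30 bases that end at the site were searched in this order first, and all 40 only where those 30 held none. Where a run holds several of these hexamers, which can overlap one another, only the first in this order is in capitals. Where that hexamer occurs more than once in the run, as at Pcbp2 and Myh3, only the copy nearest the pA site is in capitals.
Pcbp2 (intron 5 of 14, chr15:102305166-102305195, plus strand): aataaaaaaAATAAAgttcatgttaagtaa
Slc38a2 (intron 4 of 15, chr15:96527022-96527051, minus strand): gtaaccattttAATAAAtggctaaatgata
Glud1 (intron 1 of 12, chr14:35124927-35124956, plus strand): atcttctaaattattataattttacactga
Eif6 (intron 2 of 5, chr2:155650900-155650929, minus strand): ctctgatAATAAAacatcctggtcttttaa
Trap1 (intron 2 of 18, chr16:4070787-4070816, minus strand): agtaagctgAATAAAccttttcctccccaa
Nup160 (intron 22 of 36, chr2:90551132-90551161, plus strand): taaataAGTAAAgataagctttgtgtttaa
Antxr2 (intron 14 of 16, chr5:98369341-98369370, minus strand): ttctcagagAATAAAactacctaaaatttg
Rasa3 (intron 1 of 23, chr8:13672925-13672954, minus strand): tttctctcATTAAAgtttttttaaatacta
Sh3rf1 (intron 2 of 12, chr8:63705279-63705308, plus strand): tccgacatAGTAAAtcctgttttaaagatc
Irs1 (intron 1 of 1, chr1:82266861-82266890, minus strand): aaaattcacataAATAAAttatttaataca
Irs1 (intron 1 of 1, chr1:82270678-82270707, minus strand): atatATTAAAaaccttctgctttgcctaaa
Myh3 (intron 31 of 40, chr11:66911136-66911165, plus strand): gtacttacatatgataaataAATAAAtttt
Among the 12 sites, that of Glud1 held none of the 11 hexamers in its 40 bases. The sites of Nup160 and Sh3rf1 held AGTAAA in capitals, and those of Rasa3 and 1 of the 2 Irs1 sites held ATTAAA.

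Over all members, 52.1% held AATAAA in the 40 bases upstream, 18.9% held ATTAAA without AATAAA, and 86.3% held at least 1 of the 11 hexamers. Among 56283 sites outside upstream antisense transcripts, which include sites under the limit of 10 siCtrl reads, these shares were 43.6%, 15.3% and 77.5%. Among intronic sites with at least 10 siCtrl reads and 5% or more of their gene they were 59.4%, 17.7% and 88.8%. Among sites of 3'-most exons under the same limits of reads and share as the members they were 32.2%, 17.0% and 74.9%. Internal priming on genomic A stretches was looked at by counting bases downstream: 28 members (4.56%) had 12 or more A in the next 20 bases. This share was 2.15% among the 56283 sites, 6.43% among intronic sites above the 5% limit and 0.486% among the minor sites of 3'-most exons. How many of these sites come from internal priming was not tested. In the reference annotation of the same build, 599 members lay within an intron of the transcript used for their gene, at a median of 1057 bases from the 5' splice site in introns with a median length of 5246 bases. The annotation gave a transcript end within 50 bases of 91 members (14.8%), and 12 members lay within a second annotated gene of the same strand, where reads of the 2 genes cannot be told apart. Most genes (439) held 1 member, and Ncam1, which encodes a neural cell adhesion molecule, held 5. The 552 introns with a member included 37 with 2 or more, so members of 1 gene or intron are not independent of each other.

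Total PASS reads, the reads that carry non-genomic Ts from a poly(A) tail, ranged from 5302728 to 14340927 per 3'READS library. The targeted genes were low in their own knockdowns: Paf1 had 17.6 and 18.2 RPM (reads scaled to the size of the library) in siCtrl and 2.94 and 3.21 with siPaf1, Cdc73 had 5.82 and 10.9 in siCtrl and 0.566 and 3.14 with siCdc73, and Wdr61 had 22.3 in siCtrl and 1.45 with siSki8 in batch 2. The siPaf1 library of batch 2 stood apart, with 252 genes of at least 30 reads that were over 20-fold above each of the other 6 libraries, and 0 of these held a member. Summed RNA-seq levels of the 4 myoblast markers in the table (Myf5, Des, Cdh15 and Vim) were between 17512 and 33477 CPM (counts scaled to the size of the library). Vim made up most of this sum, at 16459 to 30923 CPM. Cdh15 was lower than in siCtrl of the same batch, by log2 changes of -1.17 and -0.70 with siPaf1 and -1.30 and -1.34 with siCdc73. Des changed by 0.94 and 0.47 with siPaf1 and -0.14 and -0.37 with siCdc73, and Myf5 by -0.03 and -0.43, and 0.54 and 0.78. The sum therefore does not show that each marker held its level. The 3 macrophage and endothelial markers (Ptprc, Itgam and Cdh5) summed to between 0.280 and 1.46, and 5 myotube markers to between 21.2 and 199.

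In siCtrl cells the members held 6464 reads in batch 1 and 9160 in batch 2, which was 2.71% and 2.19% of all reads of their genes. Their median siCtrl count was 16 reads, with quartiles of 12 and 25, so the share of a single member in a single library is imprecise. The gene totals also differed between batches, and 40 members were at 0 reads in 1 siCtrl library. Just inside the 5% limit were sites of 4933434E20Rik and Mthfd1l, both at 4.98%, and just outside were those of Rb1cc1 at 5.00% and Pkd1 at 5.02%. At the read limit, 66 members had exactly 10 siCtrl reads, among them sites of Ano6 and Ncam1, and 73 intronic sites under 5% had 9, among them sites of Smek2 and Ssu72.

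With siPaf1 the members held 5.81% and 6.09% of the reads of their genes in batches 1 and 2, and with siCdc73 they held 6.54% and 5.37%. With siSki8 they held 2.34%, between the 2 siCtrl libraries. The 4 siPaf1 and siCdc73 libraries were all above the siCtrl and siSki8 libraries in this pooled share. A small number of sites carried much of the increase: the 10 members with the most reads took 17.2% and 17.7% of member reads in siCtrl, between 28.6% and 42.5% in the siPaf1 and siCdc73 libraries, and 25.9% with siSki8. Without the genes of those 10 sites in each library, the pooled share was 2.53% and 2.05% in siCtrl, 4.22% and 4.13% with siPaf1, 4.86% and 4.36% with siCdc73, and 2.10% with siSki8.

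The median share of a member moved less than the pooled share. It was 2.54% and 2.27% in siCtrl, 3.31% and 2.78% with siPaf1, 3.26% and 3.46% with siCdc73, and 1.98% with siSki8. More members reached high shares with siPaf1 and siCdc73, and more were also at 0 reads. The upper quartile was 5.19% and 3.66% in siCtrl, 6.98% and 6.18% with siPaf1, 8.10% and 7.28% with siCdc73, and 3.77% with siSki8. In the same order the lower quartile was 1.12% and 1.20%, 1.05% and 0.83%, 0.82% and 1.14%, and 0.83%. Members at 0 reads numbered 30 and 10, 64 and 59, 98 and 39, and 37. The rule limited the siCtrl shares, so the siCtrl counts below are a description. A share of 10% or more was found for 26 and 5 members in siCtrl, 85 and 87 with siPaf1, 116 and 96 with siCdc73, and 18 with siSki8. A share of 20% or more was found for 5 and 1, 31 and 26, 52 and 17, and 0 members in the same order. In both siPaf1 libraries 41 members (6.68%) reached 10%, in both siCdc73 libraries 50 (8.14%), and in all 4 libraries 23. Among 2467 minor sites of 3'-most exons, chosen by the same limits of reads and share, 61 (2.47%) reached 10% in both siPaf1 libraries and 44 (1.78%) in both siCdc73 libraries.

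**Figure D1:**
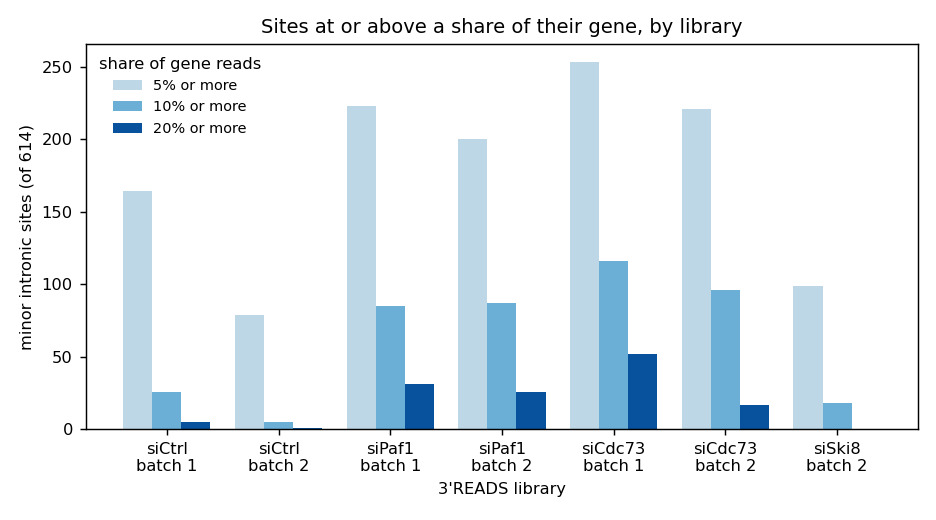
Number of the 614 minor intronic sites (y axis) whose share of the reads of their gene was at least 5%, 10% or 20% (bar shades) in each 3'READS library (x axis). The siCdc73 library of batch 1 had the most sites at 20% or more (52), and the siSki8 library had 0.

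Members moved in both directions. Each knockdown library was set against the siCtrl library of its batch as a log2 ratio of site reads to other reads of the gene, with 0.5 added to both. The median change was 0.25 and 0.35 with siPaf1, 0.55 and 0.57 with siCdc73, and -0.01 with siSki8. The siCtrl library of batch 2 against that of batch 1 gave a median of -0.26, a difference between batches of a like size. The mean of the 2 medians with siPaf1 was 0.12 with siCtrl batch 1 as the control of both batches and 0.50 with siCtrl batch 2. Minor sites of 3'-most exons gave 0.08 and 0.08 with siPaf1, 0.07 and 0.09 with siCdc73, and 0.22 with siSki8. The 1727 intronic sites above the 5% limit gave medians below 0 in all 5 libraries, from -0.45 with siPaf1 in batch 2 to -0.25 with siCdc73 in batch 1. More than 4-fold changes went up at 105 and 126 members with siPaf1 and down at 72 and 108, where 6.61% and 7.56% of all sites tested went up and 10.8% and 14.9% down. With siCdc73 they went up at 128 and 138 members and down at 65 and 64, where 7.44% and 5.76% of all sites went up and 14.5% and 12.1% down. With siSki8 they went up at 29 members and down at 63 (3.68% and 6.94% of all sites). Between the 2 siCtrl libraries, with no knockdown, batch 2 was higher than batch 1 by this measure at 83 members and lower at 117 (12.5% and 10.8% of all sites). The share lay above both siCtrl libraries in both siPaf1 libraries for 178 of the 614 members and below both for 105, where all 18969 sites of any type with at least 10 siCtrl reads gave 14% and 22.4%. For siCdc73 the counts were 179 members above and 87 below, against 13.7% and 22.7%. The siCtrl reads that chose the members enter these counts, so nothing is read from them.

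First- and second-intron members had the largest median changes among the intron classes with siPaf1 and siCdc73, but the order along the gene was not steady. In genes of at least 5 introns, 56 members lay in the first intron, 57 in the second, 316 in the middle, 43 in the next to last and 75 in the last. First-intron members had median log2 changes of 1.59 and 1.30 with siPaf1 and 1.20 and 0.98 with siCdc73. Second-intron members had 0.90 and 1.11 with siPaf1 and 0.85 and 1.03 with siCdc73. Middle-intron members had 0.15 and 0.21 with siPaf1 and 0.57 and 0.52 with siCdc73, and next-to-last ones had 0.33 and 0.70 with siPaf1 and -0.11 and 0.71 with siCdc73. Last-intron members had -0.22 and -0.10 with siPaf1 and -0.26 and 0.18 with siCdc73. With siSki8 the 5 classes lay between -0.13 and 0.06. Above 0 were 78.6% and 80.4% of first-intron members with siPaf1, and 42.7% and 48.0% of last-intron members.

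**Figure D2:**
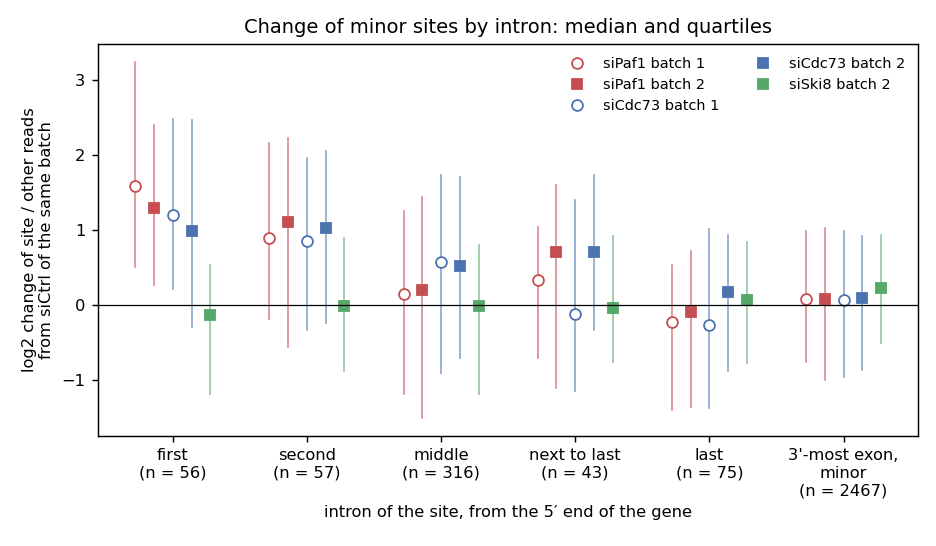
Median log2 change of the ratio of site reads to other reads of the gene from the siCtrl library of the same batch (y axis, points) with quartiles (lines), for members by intron class and for minor sites of 3'-most exons (x axis). First-intron members had medians from 0.98 to 1.59 in the siPaf1 and siCdc73 libraries, and last-intron members had medians from -0.26 to 0.18.

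First-intron members were again above last-intron members without a siCtrl library. Against the siSki8 library of the same batch, first-intron members had a median log2 difference of 1.64 with siPaf1 and 1.35 with siCdc73, and last-intron members had -0.26 and 0.07. Second-intron members had 0.90 and 0.83, middle ones 0.24 and 0.52, and next-to-last ones 0.62 and 0.79. The siCtrl library of batch 2 differed from siSki8 by 0.13 in the first intron and -0.06 in the last. By position along the gene, the 103 members in the first of 5 equal parts had medians of 1.24 and 1.32 with siPaf1 and 1.16 and 0.99 with siCdc73, and the 120 members in the fourth had 0.05, -0.07, 0.15 and 0.14. The 179 members in the fifth part had -0.05, 0.32, 0.02 and 0.58, so in batch 2 they lay above the fourth. Among intronic sites above the 5% limit, those in first introns had medians of 0.26, 0.00, -0.07 and 0.05 in these 4 libraries. Those in last introns had -0.32, -0.23, -0.35 and -0.21, so first introns lay above last introns there too, with smaller differences. Against siSki8, these first-intron sites had 0.38 with siPaf1 and 0.27 with siCdc73, and the last-intron sites had -0.09 and 0.01.

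Members with a hexamer and in genes with many reads also had higher changes. The 530 members with at least 1 of the 11 hexamers had medians of 0.40 and 0.45 with siPaf1 and 0.65 and 0.64 with siCdc73, and the 84 without had -0.39, -0.54, -0.26 and -0.21. The 150 members within 355.5 bases of the 5' splice site had medians of 0.57, 0.75, 0.88 and 0.68, and the 149 beyond 3345 bases had -0.02, 0.10, 0.09 and 0.38. By the siCtrl reads of the gene, the 155 members of the lowest quartile had medians of -0.24, -0.19, 0.00 and 0.17, and the 154 of the highest had 0.71, 1.02, 1.01 and 1.00. The part of read depth in these differences was not tested.

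To test members with less weight on the reads that chose them, the knockdowns were compared with each other, and each with a siCtrl library held out of the choice. Each test was edgeR's quasi-likelihood test of the isoform by group interaction, the reads of a site against all other reads of its gene, with Benjamini-Hochberg adjustment over all sites tested. Without a batch term no member passed an adjusted p of 0.05 in any of the 6 comparisons, and 0% of all sites did. Changes between batches were shared between groups, with correlations over the 18969 sites of 0.46 between siCtrl and siPaf1, 0.49 between siCtrl and siCdc73 and 0.41 between siPaf1 and siCdc73. The fit without a batch term had been set as the main one, and the fit with batch as a block as an alternative to it. The calls below rest on that alternative, which was taken up after the main fit called no member. It leaves few degrees of freedom per site. The siCtrl libraries enter that fit through the batch term and the estimate of spread, so it was also run without them.

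Against siSki8, most of the members called were higher with siPaf1 and siCdc73. With the batch term, 45 of 614 members (7.33%) were higher with siPaf1 than with siSki8 and 5 (0.814%) were lower, where 0.87% and 0.865% of all sites were called. For siCdc73, 48 members (7.82%) were higher and 4 (0.651%) lower, against 0.58% and 0.474% of all sites. Without the batch term, an unadjusted p under 0.05 was reached by 83 members higher and 20 lower with siPaf1 (2.34% and 2.64% of all sites) and by 90 higher and 16 lower with siCdc73 (1.84% and 2.15%). With the batch term and no siCtrl library in the fit, 51 members (8.31%) were higher and 7 (1.14%) lower with siPaf1 (0.993% and 1.07% of all sites), and 52 (8.47%) were higher and 5 (0.814%) lower with siCdc73 (0.667% and 0.625%). DESeq2 without the batch term called 4 members for siPaf1 and 8 for siCdc73, with 0.116% and 0.221% of all sites. The counts depend on single libraries, for members as for all sites. Without siPaf1 batch 1, 80 of the 614 members were higher and 20 (3.26%) lower, where 2.38% and 2.64% of all sites were called. Without siPaf1 batch 2 the counts were 16 (2.61%) and 2 (0.326%), against 0.192% and 0.149% of all sites. Without siCdc73 batch 1 they were 31 (5.05%) and 2 (0.326%), against 0.36% and 0.259%, and without siCdc73 batch 2 they were 11 (1.79%) and 1 (0.163%), against 0.208% and 0.181%. By intron, 11 of 56 first-intron members (19.6%) and 1 of 75 last-intron members (1.33%) were called higher with siPaf1, and 9 (16.1%) and 2 (2.67%) with siCdc73. The siSki8 group is a single library whose spread is assumed to be like that of the others.

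Against a held-out control the calls were again mostly higher. Sites chosen by the same limits on siCtrl batch 1 alone numbered 135, of which 118 were among the 614, and siCtrl batch 2 was then the control. With the batch term, 21 (15.6%) were higher and 2 lower with siPaf1, where 1.64% and 2.24% of all sites were called, and 23 (17.0%) were higher and 1 lower with siCdc73, against 1.33% and 2.03%. With siSki8 0 were higher and 0 lower, against 0.00772% and 0.0463%, and the smallest adjusted p of a chosen site was 0.207. That comparison sets 1 library against 1 and has less power than those with 2 knockdown libraries, so its count of 0 does not show that siSki8 had no effect. Without the batch term, unadjusted p-values under 0.05 were found for 25 higher and 5 lower with siPaf1 (2.68% and 3.4% of all sites), 27 and 3 with siCdc73 (2.34% and 3.51%), and 3 and 2 with siSki8 (0.286% and 0.456%). DESeq2 without it called 5, 6 and 0 chosen sites, and 0.448%, 0.494% and 0% of all sites. With the roles of the 2 controls exchanged, 292 sites were chosen and 25 were higher and 5 lower with siPaf1 with the batch term (0.548% and 0.688% of all sites). In that exchange 29 were higher and 4 lower with siCdc73 (0.593% and 0.745%), and 0 in either direction with siSki8 (0% and 0%).

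The member with the largest rise in share was in Pcbp2, which encodes a poly(C)-binding protein that regulates splicing, stability and translation of mRNAs. Its site, 83 bases into intron 5, held 13 and 46 reads in siCtrl (1.90% and 3.12% of the gene), 1423 and 5741 with siPaf1 (66.3% and 71.1%), 347 and 2116 with siCdc73 (42.3% and 52.7%) and 75 with siSki8 (3.62%). The siPaf1 and siCdc73 libraries were all far above the others and did not overlap them. It was higher than with siSki8 by 6.13 ± 0.61 (log2, SE) with siPaf1 and by 4.85 ± 0.59 with siCdc73, with adjusted p of 2.54e-08 and 1.64e-06 from edgeR with the batch term and 0.871 and 0.857 without it. Over 11 settings of each comparison the adjusted p ran from 1.68e-19 to 0.973 and from 4.45e-09 to 1. The RNA-seq level of Pcbp2 was 633 and 1142 CPM in siCtrl, 773 and 1885 with siPaf1, 651 and 939 with siCdc73 and 1825 with siSki8, so the siSki8 value was near that of siPaf1 in the same batch.

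Hnrpll and Mfsd7b had the next largest rises, averaged over the 4 siPaf1 and siCdc73 libraries. The Hnrpll gene encodes an hnRNP L-like splicing regulator, and its site in intron 2 of 13 was at 5.15% and 0.307% of the gene in siCtrl, 51.8% and 38.3% with siPaf1, 65.7% and 27.4% with siCdc73 and 1.16% with siSki8. The 2 siCtrl shares differed widely, but all 4 knockdown shares lay above both. Against siSki8 the difference was 5.03 ± 0.73 with siPaf1 and 5.09 ± 0.72 with siCdc73, with adjusted p of 3.74e-05 and 1.98e-05 with the batch term and 0.947 and 0.995 without it. Mfsd7b, a membrane transporter of the major facilitator family, had a site in intron 1 of 9 at 6.06% and 1.68% in siCtrl, 73.2% and 37.5% with siPaf1, 60.9% and 30.8% with siCdc73 and 6.40% with siSki8. It was higher with siPaf1 than with siSki8 by 3.23 ± 0.74 (adjusted p = 0.0109 with edgeR and the batch term), and siCdc73 did not pass.

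Glud1, Slc38a2 and Myof were called against both siSki8 and the held-out control. The Glud1 site, in the first intron of the gene for mitochondrial glutamate dehydrogenase, was at 1.31% and 1.11% in siCtrl, 11.3% and 26.5% with siPaf1, 3.80% and 7.57% with siCdc73 and 0.952% with siSki8. It is the printed site without a hexamer, and it was higher with siPaf1 than with siCdc73 by 1.91 ± 0.45 (adjusted p = 0.0178 with edgeR and the batch term). Without the batch term that adjusted p was 1, and it ran from 0.00122 to 1 over 15 settings. Slc38a2, a neutral amino acid transporter, had a site in intron 4 at 1.17% and 0.909% in siCtrl, 13.9% and 11.1% with siPaf1, 16.0% and 8.12% with siCdc73 and 0.0990% with siSki8, where it had 2 reads. The siSki8 value was the lowest of the 7, and the difference from the held-out control was 3.58 ± 0.71 with siPaf1 and 3.45 ± 0.71 with siCdc73. Myof encodes myoferlin, a membrane protein with a role in myoblast fusion, and its first-intron site was at 0.512% and 0.405% in siCtrl, 6.23% and 5.87% with siPaf1, 3.87% and 4.86% with siCdc73 and 0.726% with siSki8. Its 7 values fell into separate high and low groups, and the RNA-seq level of the gene was 2143 and 1885 CPM in siCtrl, 1152 and 849 with siPaf1, 1199 and 794 with siCdc73 and 1722 with siSki8.

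Hmga2 encodes an architectural chromatin protein and held 2 members. The one in intron 3, with 245 siCtrl reads, was at 2.19% and 4.92% in siCtrl, 30.9% and 16.0% with siPaf1, 26.3% and 20.3% with siCdc73 and 4.12% with siSki8. Its reads were 70 and 175 in siCtrl, 392 and 285 with siPaf1 and 99 and 175 with siCdc73. The gene totals were 3198 and 3560 in siCtrl, 1268 and 1785 with siPaf1 and 376 and 864 with siCdc73, so the other reads of the gene fell as the share went up. The difference from siSki8 was 2.66 ± 0.62 with siPaf1 and 2.70 ± 0.62 with siCdc73, with adjusted p of 0.0121 and 0.0166 from edgeR with the batch term. Of the other members with the most siCtrl reads, that of Nap1l1, which encodes a nucleosome assembly protein, was at 3.58% and 3.00% in siCtrl, 6.25% and 9.04% with siPaf1, 8.33% and 3.54% with siCdc73 and 3.42% with siSki8. It lies at an annotated transcript end. Tm4sf1, a tetraspanin-like membrane protein, was at 3.08% and 4.12% in siCtrl, 6.13% and 6.55% with siPaf1 and 5.01% and 6.77% with siCdc73. Rrbp1, a ribosome-binding protein of the endoplasmic reticulum, shows how far batches can differ: its site was at 13.3% and 1.28% in siCtrl, 16.2% and 0.959% with siPaf1 and 21.7% and 1.86% with siCdc73, with gene totals of 969 and 12258 reads in siCtrl.

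**Figure D3:**
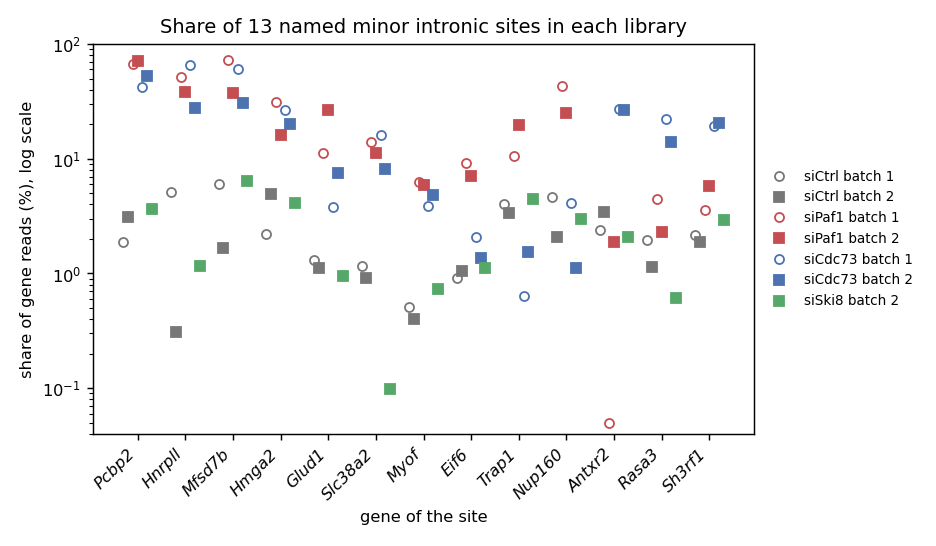
Share of the reads of the gene (y axis, log scale, with 0 drawn at 0.05%) at 13 named minor intronic sites (x axis) in each library (colour for the siRNA, open circles for batch 1 and filled squares for batch 2). At Pcbp2 the siPaf1 and siCdc73 libraries lie between 42.3% and 71.1% and the others at or under 3.62%, and at Nup160 and Antxr2 1 of the 2 knockdowns stands apart.

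A few members were lower, and as each of these sets has 5 or fewer members they are named here after their values were seen. Against siSki8 the 5 lower with siPaf1 were in Tubb3, Ptpn13, Tmem161a, Epha2 and Mfsd11, and the 4 lower with siCdc73 were in Tmem161a, Tubb3, Tnrc6c and Akap13. Against the held-out control they were in Tubb3 and Iars2 with siPaf1 and in Tubb3 with siCdc73. The Tubb3 site, in intron 1 of 3 of a neuronal beta-tubulin gene, had 16 and 23 reads in siCtrl, 8 and 1 with siPaf1, 0 and 3 with siCdc73 and 24 with siSki8. It lies within a second annotated gene of the same strand, as does the Mfsd11 site, so its reads may belong to that gene. The siCdc73 libraries were at 0 reads at the Tmem161a, Tnrc6c and Akap13 sites, where siCtrl had between 4 and 11 reads.

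Members whose level differed between the knockdowns were sought by testing siPaf1 against siCdc73. A call here is a difference in size and does not show that a member responded to 1 knockdown only. The Glud1 and Itgav sites were called here, and with the batch term each was also called higher than the held-out control with both siPaf1 and siCdc73. At Itgav the siSki8 library also lay above that control, by a log2 difference of 4.54 to 4.70 over the settings. The difference of Itgav from that control is therefore not particular to siPaf1 and siCdc73. Against siSki8 the Itgav difference ran from -0.94 to 1.61 with siPaf1 and from 0.50 to 3.72 with siCdc73. With the batch term, 11 of 614 members (1.79%) were higher with siPaf1 and 20 (3.26%) were higher with siCdc73, where 0.712% and 0.691% of all sites were called. Without it an unadjusted p under 0.05 was found for 32 members higher and 34 lower with siPaf1 (2.08% and 1.76% of all sites), and DESeq2 called 1 each way (0.0843% of all sites in either direction). With the batch term and no siCtrl library in the fit, 13 (2.12%) were higher and 21 (3.42%) lower with siPaf1 (0.796% and 0.753% of all sites). The counts rest on single libraries, for members as for all sites. They were 22 and 22 without siPaf1 batch 1 (1.12% and 1.18% of all sites) and 5 and 6 without siPaf1 batch 2 (0.363% and 0.213%). Without siCdc73 batch 1 they were 2 and 5 (0.201% and 0.212%), and without siCdc73 batch 2 they were 0 and 1 (0.0479% and 0.0426%).

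Eif6, Trap1 and Nup160 were higher with siPaf1. The Nup160 site, in intron 22 of the gene for a nuclear pore protein, held 9 and 7 reads in siCtrl (4.66% and 2.08%), 78 and 58 with siPaf1 (43.3% and 24.8%), 4 and 3 with siCdc73 (4.08% and 1.12%) and 10 with siSki8 (2.97%). The siPaf1 libraries alone stood apart, with a difference from siCdc73 of 4.45 ± 0.79 and an adjusted p of 0.000966 from edgeR with the batch term, which ran from 0.000171 to 0.164 over the settings with a batch term. A second member of Nup160, in intron 4, was at 7.22% and 1.28% with siPaf1 and 28.6% and 12.3% with siCdc73. The Trap1 site, in intron 2 of the gene for a mitochondrial Hsp90-type chaperone, was at 4.05% and 3.35% in siCtrl, 10.6% and 19.6% with siPaf1, 0.630% and 1.55% with siCdc73 and 4.46% with siSki8. Here the siCdc73 libraries were the lowest and the siPaf1 libraries the highest, by 3.98 ± 0.70 (adjusted p = 0.00079, edgeR with the batch term). Eif6, a factor in 60S ribosomal subunit maturation, was at 0.912% and 1.06% in siCtrl, 9.26% and 7.01% with siPaf1, 2.07% and 1.37% with siCdc73 and 1.12% with siSki8, at an annotated transcript end. Its siPaf1 libraries exceeded siCdc73 by 2.36 ± 0.41 (adjusted p = 0.000769).

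Antxr2, Rasa3 and Sh3rf1 were higher with siCdc73. The Antxr2 site, in intron 14 of the gene for an anthrax toxin receptor, held 7 and 17 reads in siCtrl (2.41% and 3.42%), 0 and 9 with siPaf1 (0% and 1.86%), 49 and 97 with siCdc73 (27.2% and 26.7%) and 6 with siSki8 (2.09%). The siCdc73 libraries alone were high. The adjusted p of siPaf1 against siCdc73 was 0.000182 from edgeR with the batch term, which ran from 3.47e-06 to 0.0233 over the settings with that term. Rasa3, a Ras GTPase-activating protein, was at 1.95% and 1.14% in siCtrl, 4.45% and 2.30% with siPaf1, 22.0% and 14.1% with siCdc73 and 0.617% with siSki8, with siPaf1 lower than siCdc73 by 2.69 ± 0.57 on the log2 scale (adjusted p = 0.00634). The gene totals with siCdc73 were 150 and 249 reads, against 771 and 1320 in siCtrl. Sh3rf1, a scaffold protein and ubiquitin ligase, was at 2.17% and 1.87% in siCtrl, 3.55% and 5.76% with siPaf1, 19.3% and 20.6% with siCdc73 and 2.93% with siSki8 (adjusted p = 0.0204 with edgeR and the batch term). Its shares with siCdc73 were close to each other and above the other 5 libraries.

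**Figure D4:**
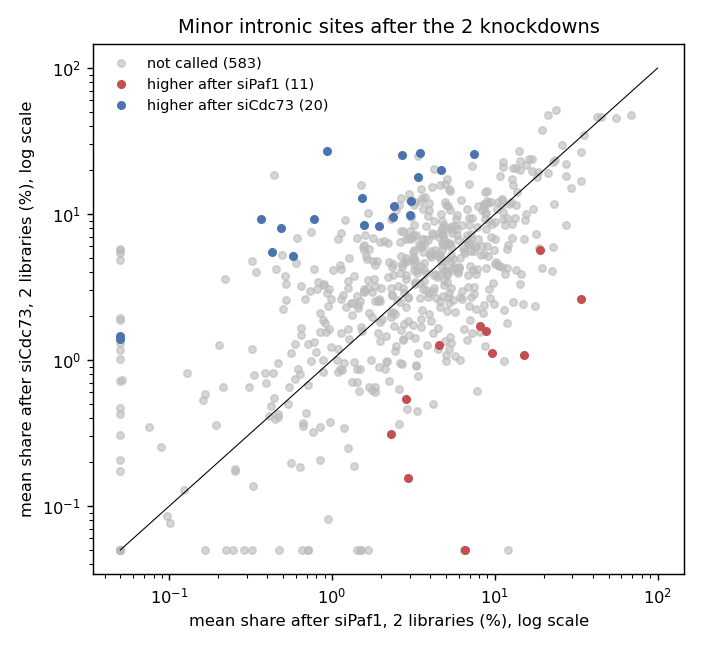
Mean share of the reads of the gene with siPaf1 (x axis) and with siCdc73 (y axis), each over 2 libraries and on a log scale with values under 0.05% drawn at 0.05%, for the 614 minor intronic sites. Red marks the 11 sites higher with siPaf1 and blue the 20 higher with siCdc73 by edgeR with the batch term, and grey the 583 not called.

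Members were also counted in gene lists. Among cleavage and polyadenylation factors 3 genes held 4 members: Wdr33 held 2, and Papola and Ssu72 held 1 each. The Ssu72 site, in the gene for a phosphatase of the RNA polymerase II tail, was at 2.03% and 5.16% in siCtrl, 3.60% and 5.44% with siPaf1, 6.43% and 8.33% with siCdc73 and 1.96% with siSki8. It was higher than siSki8 with siCdc73 (adjusted p = 0.029 with edgeR and the batch term), and 1 Wdr33 site was with siPaf1. Of elongation factors, Ccnt1 (cyclin T1, a subunit of P-TEFb) had a site at 2.80% and 0.833% in siCtrl, 9.04% and 23.3% with siPaf1, 26.7% and 20.8% with siCdc73 and 1.84% with siSki8, higher with siCdc73 than with siSki8 (adjusted p = 0.034 with edgeR and the batch term). The Cdk13 site, in a gene for a kinase of that polymerase tail, had 7 and 7 reads in siCtrl, 3 and 1 with siPaf1, 0 and 0 with siCdc73 and 0 with siSki8. The 7 splicing factor members were in Hnrnpl, Mbnl1, Pcbp2, Ptbp2, Rbm5, Son and Srsf10, with 2 called higher than siSki8 with siPaf1 and 1 with siCdc73. Son, an RNA-binding protein of nuclear speckles, was at 3.65% and 4.81% in siCtrl, 6.65% and 7.16% with siPaf1 and 5.27% and 7.67% with siCdc73, all above siCtrl but not called.

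The other lists had few calls. Over all members, 7.33% were higher than siSki8 with siPaf1 and 7.82% with siCdc73, and the lists are too small to be set against these shares. Between siPaf1 and siCdc73, members in Baz1b (chromatin), Itgav and Ncam1 (both matrix and adhesion) were lower with siPaf1, and 1 in Tln1 (cytoskeleton) was higher. Chromatin regulators held 11 members in 6 genes, among them 3 in Chd9 and 4 in Whsc1l1, and 0 were called against siSki8 in either direction. Both Chd9 sites with the most reads were in intron 2 of 39, and the first was at 1.81% and 1.59% in siCtrl, 7.72% and 4.09% with siPaf1, 5.37% and 2.82% with siCdc73 and 1.06% with siSki8. Of 9 members in extracellular matrix and adhesion genes, 2 were called higher than siSki8 with siCdc73, and these were in Fn1 (fibronectin) and Ncam1. The Fn1 site was at 4.45% and 1.36% in siCtrl, 4.00% and 3.44% with siPaf1, 22.4% and 3.76% with siCdc73 and 0.539% with siSki8, so 1 siCdc73 library was far above the other. Of the 5 Ncam1 members the one in intron 1 of 17 had 1 and 9 reads in siCtrl, 18 and 40 with siPaf1, 29 and 131 with siCdc73 and 3 with siSki8, and the other 4, in introns 13 and 15, stayed under 5% in each library.

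Among 9 cytoskeleton members, Tpm1 (tropomyosin) held 2 in its last intron, both at annotated transcript ends. The larger was at 4.33% and 1.42% in siCtrl, 6.05% and 5.77% with siPaf1, 8.43% and 4.88% with siCdc73 and 1.08% with siSki8, and was higher than siSki8 with siPaf1 and siCdc73 (adjusted p of 0.027 and 0.0221 with edgeR and the batch term). Of 6 ubiquitin ligase members, that of Nedd4 was at 1.76% and 3.26% in siCtrl, 8.60% and 37.2% with siPaf1, 3.89% and 8.04% with siCdc73 and 8.22% with siSki8. Its 2 siPaf1 libraries differed more than 4-fold, and it was not called. The second Nedd4 member was higher with siCdc73 than with siSki8, the only call against siSki8 among the 6. Of 8 receptor and signalling kinase members, 1 (in Epha2) was lower than siSki8 with siPaf1 and 1 (in Pdgfrb) was higher with siCdc73. DNA damage genes held members in Fancd2 and Xpa with 0 calls, and the macrophage and endothelial list held 0 members.

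Of the genes that the study names in its text or primer lists, Irs1, Myh3 and Pcbp2 held members. Irs1 encodes the insulin receptor substrate, a docking protein of insulin signalling, and its 2 members lie in its single intron. The one at 11.5% and 1.18% in siCtrl was at 28.4% and 8.49% with siPaf1, 29.5% and 9.02% with siCdc73 and 1.93% with siSki8. Within each batch the knockdown shares exceeded siCtrl, although the siCtrl share of batch 1 exceeded the knockdown shares of batch 2, and the gene had only 131 siCtrl reads in batch 1. The other was at 3.82% and 1.18% in siCtrl, 4.74% and 4.74% with siPaf1, 8.57% and 6.01% with siCdc73 and 0.644% with siSki8. Neither was called between knockdowns in the edgeR fit with the batch term and all libraries. Against siCtrl batch 2 the site at 11.5% in siCtrl batch 1 passed in that fit without siCtrl batch 1 (adjusted p = 0.0111 with siPaf1 and 0.0096 with siCdc73). It was not among the 135 sites chosen on siCtrl batch 1 alone, so the reads of siCtrl batch 2 had a part in its choice. The site at 3.82% in siCtrl batch 1 was at an adjusted p of 0.0438 for siPaf1 against siSki8 in 1 of 11 settings. The Myh3 site, in the gene for embryonic myosin heavy chain, had between 1 and 15 reads in each library.

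Shares that fell most were low in depth. The Creb5 site had 35 of 66 gene reads in siCtrl batch 1 and 13 of 2196 in batch 2, the Eml2 site 10 of 40 and 0 of 199, and the Jup site 4 of 25 and 9 of 378. With siCdc73 the 3 sites had at most 1 read in each library.

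The RNA-seq table listed 9999 genes, and 254 of those with a member passed the filter on low counts. Their levels were slightly lower with siPaf1 and siCdc73. The median log2 change of these genes from siCtrl of the same batch was -0.22 and -0.21 with siPaf1, -0.18 and -0.25 with siCdc73 and 0.04 with siSki8, where all 6521 genes tested gave 0.05 and -0.02, 0.01 and -0.04, and 0.01. The 62 genes whose member rose over 2-fold in both siPaf1 libraries gave -0.47 and -0.41 with siPaf1 and 0.09 with siSki8. The 68 genes whose member rose over 2-fold in both siCdc73 libraries gave -0.28 and -0.20 with siCdc73, near the -0.18 and -0.25 of all 254. A group without such sites was not flat: 745 genes with a minor site in the 3'-most exon and no intronic site of 10 siCtrl reads gave -0.03 and -0.26 with siPaf1, -0.05 and -0.16 with siCdc73 and 0.14 with siSki8. With the siCtrl library of batch 1 left out and that of batch 2 as the control of both batches, the mean of the batch medians of the 254 genes was -0.083 with siPaf1 and -0.094 with siCdc73, and with batch 2 left out it was -0.35 and -0.35. Scaling by library size alone moved the median of all genes to -0.18 with siCdc73 and -0.24 with siSki8, and relative to all genes the 254 genes were then at -0.23, -0.21 and 0.01 with siPaf1, siCdc73 and siSki8. In bulk samples, fewer cells of a type and less RNA per cell cannot be told apart.

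**Figure D5:**
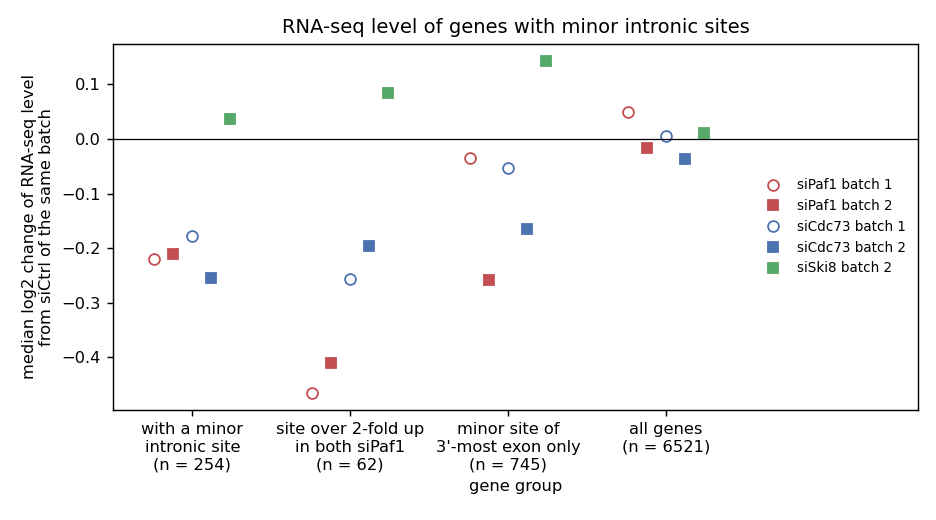
Median log2 change of the RNA-seq level from siCtrl of the same batch (y axis) for 4 groups of genes (x axis) in each knockdown library (points). Genes with a minor intronic site lie between -0.25 and -0.18 in the siPaf1 and siCdc73 libraries and at 0.04 with siSki8.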

How the data were processed

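The authors mapped 3'READS reads of 7 libraries to mm9 with Bowtie2, retained unique alignments whose extra 5' Ts do not match the genome, called PASS reads, and deposited counts per pA site without normalization. For RNA-seq they deposited counts per transcript. Versions were not given in the sources used here. The deposited RPKM columns were not used. Samples were grouped by the labels, and 0 per-sample columns were left unmatched.

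The members, gene lists and tests were chosen with earlier results of these data known. Sites with at least 10 siCtrl reads and 10 other reads of the gene (18969) were tested in R 4.3.3 with edgeR 4.0.16, with DESeq2 1.42.0 as an alternative. The labels give the batch, so numbers pair the libraries, and the fit with batch as a replicate block is given where it changed a call. RNA-seq levels were TMM-scaled log2 CPM with a prior count of 2. Python 3.11.15, numpy 2.4.6, pandas 2.3.3, matplotlib 3.10.9 and pysam 0.24.0 were used for sequences, tables and figures. Introns and transcript ends came from the GENCODE annotation of the same build.

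On simulated counts with batch differences, siPaf1 against siCdc73 over 18969 sites recovered 0 of 100 4-fold changes without the block and 11 with it, and without batch differences 27 in either fit. For siPaf1 against the held-out control over 12952 sites it was 0 and 5 with batch differences, and 10 without the block and 4 with it when there were none. 0 of 100 2-fold changes were recovered and 0 sites called wrongly in these runs. The simulated batch shift of a site was the same in every group, the form that the block assumes, and the spread was fixed. In the data, changes between batches correlated between groups at 0.41 to 0.49. The 0 wrong calls therefore do not show how many calls with the block are false in the data. Named members were those of genes the study names, at most 3 per comparison and direction with the smallest p of the fit with the block (mean of at least 20 reads), the 5 with the most siCtrl reads, at most 2 per gene list, the 3 with the largest rise and the 3 with the largest fall in share, and those at the limits of the rule. Alternatives were other controls, filters, tools and left-out libraries. Depth was 5302728 to 14340927 PASS reads per library, and low site counts limit the precision of single shares.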

Additional observations from a re-analysis of the deposited data

How the results depend on the processing

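The main fit, without a batch term, called no member, and the edgeR fit with batch as a replicate block was an alternative taken for the calls after that. Alternatives with the batch term in DESeq2, with a library left out, without siCtrl libraries or with the 2 controls exchanged were chosen after seeing the data. With batch as a replicate block, the counts of members higher and lower went from 0 and 0 to 11 and 20 (siPaf1 against siCdc73), 45 and 5 (siPaf1 against siSki8), 48 and 4 (siCdc73 against siSki8), 21 and 2 (siPaf1 against the held-out control) and 23 and 1 (siCdc73 against it), and stayed at 0 and 0 for siSki8, a comparison of 1 library with 1. DESeq2 without the block gave 1 and 1, 4 and 0, 7 and 1, 5 and 0, and 6 and 0, and with it 5 and 9, 27 and 2, 24 and 1, 12 and 1, and 19 and 0. Over all sites, DESeq2 with the block called 72 and 69, 98 and 81, and 63 and 48 of 18969 in the first 3 comparisons. In the held-out comparisons it called 105 and 138 of 12952 sites with siPaf1 and 89 and 126 with siCdc73. With no filter on siCtrl reads and no block, 6, 5, 1 and 2 members were higher in siPaf1 and siCdc73 against siSki8 and against the held-out control. Over all sites these counts were 15 and 27 of 48903, and 32 and 35 of 47833. With the block and a library left out, the ranges were 0 to 22 higher and 1 to 22 lower, 16 to 80 and 2 to 20, and 11 to 31 and 1 to 2 in the first 3 comparisons, where the shares of all sites called ran from 0.0479% to 1.12% and 0.0426% to 1.18%, from 0.192% to 2.38% and 0.149% to 2.64%, and from 0.208% to 0.36% and 0.181% to 0.259%. With the block and no siCtrl library in the fit the counts were 13 and 21, 51 and 7, and 52 and 5. In the held-out comparisons such a fit leaves no residual degrees of freedom and was not run. Sites chosen on siCtrl batch 2 gave 25 and 5 for siPaf1 and 29 and 4 for siCdc73 with the block. Without the block, leaving out a library or taking only reads of the 3'-most exon left 0 calls.

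The median change from siCtrl, the mean of 2 batches, was 0.30 after siPaf1 and 0.56 after siCdc73. It was 0.48 and 0.64 at 20 or more siCtrl reads, 0.84 and 1.04 at shares under 2%, 0.12 and 0.46 with siCtrl batch 1 as the only control, and 0.50 and 0.71 with batch 2. It was 0.59 after siCdc73 with reads of the 3'-most exon as the other isoform. The siSki8 median of -0.01 went to 0.23 at shares under 2% and to -0.45 with siCtrl batch 1 as the control. The RNA-seq medians without TMM were -0.20, -0.39 and -0.24 after siPaf1, siCdc73 and siSki8. With 1 siCtrl library they ran from -0.35 to -0.083 after siPaf1, from -0.35 to -0.094 after siCdc73 and from -0.22 to 0.037 after siSki8.

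Over 246 pairs of a named member and a comparison, 61 took both signs across the settings, and 0 of these were among the 52 pairs called with the block. Of the members named for a small p in a comparison, Rrbp1 and Rab28 changed direction in it. Rrbp1 after siPaf1 against siSki8 was at -1.58 with the block (also in DESeq2) and -1.67 with it and no siCtrl library, and with a siPaf1 library left out it ran from -1.78 (without batch 1, with or without the block) to 2.54 (without batch 2 and without the block), and was -1.18 without batch 2 and with it. Rab28 after siCdc73 against siSki8 ran from -2.74 (without siCdc73 batch 1) to 0.22 (without batch 2). The causes were not tested. Members had a median of 16 siCtrl reads, so that a change at a single site is detectable here only where it is large.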
